A study of Mus musculus with 28 samples.

Results

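The genes Sycp1, Sycp2, Sycp3, Syce1, Syce2, Syce3, Hormad1, Hormad2, Smc1b and Rec8 encode parts of the meiotic chromosome axis and of the synaptonemal complex. They were taken as a set of 10 named symbols; the rule used no measured value, but the set was proposed with earlier results of these data known. Each symbol matched 1 gene identifier of the 44674 in the whole-ovary count table, and all 10 were among the 26790 genes that had at least 10 counts over the 24 libraries.

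In meiotic prophase, sister chromatids are organised along a protein axis that rests on meiotic cohesin, and the synaptonemal complex then joins the axes of homologous chromosomes along their length. The axis core is made of SYCP2 and SYCP3, HORMAD1 and HORMAD2 mark the stretches that have not yet synapsed, SMC1B and REC8 are cohesin subunits used in meiosis, SYCP1 is the transverse filament, and SYCE1, SYCE2 and SYCE3 belong to the central element where filaments from both axes meet. In the mouse ovary this program runs before and around birth, after which oocytes of primordial follicles rest in dictyate arrest with the complex taken apart and with cohesin still holding sister chromatids together.

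Whole-ovary RNA came from paired ovaries of WT mice (C57BL/6J is the strain named in the methods) and of Chek2-/- mice (Chek2tm1b(EUCOMM)Hmgu), which lack the checkpoint kinase that relays DNA break signals to p53 and TAp63 in every cell of the animal. Females 7 to 9 days old received a single total-body gamma dose of 0.5 Gy (IR) or a sham exposure (nonIR), and ovaries were taken 6 h later, with 6 libraries in each of the groups WT nonIR, WT IR, Chek2-/- nonIR and Chek2-/- IR. Single-cell libraries were made from dissociated ovaries of 7-day-old females, pooled over 4 mice, with 1 library for each of the same 4 conditions. Nothing in the labels ties a bulk library to a particular animal or litter, so the p-values measure the spread between these libraries. The methods do not say whether WT and Chek2-/- mice were littermates or shared a strain background. In genotype comparisons, loss of Chek2 therefore cannot be told apart from a difference of strain or colony.

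Bulk libraries held 17824920 to 32605519 counts. The targeted gene followed its labels: Chek2 lay between 18.5 and 24.6 CPM (counts scaled to library size) in the WT libraries and between 2.88 and 4.53 CPM in the Chek2-/- libraries. Among the Chek2-/- libraries, replicate 6 of each treatment had the lowest summed oocyte markers, with 10 early oocyte markers summing to 358 CPM in nonIR replicate 6 and 442.2 CPM in IR replicate 6, below the other Chek2-/- libraries. Chek2-/- nonIR replicate 5 and Chek2-/- IR replicate 2 held the most transcripts of 7 erythroid markers, at 10530 and 7082 CPM. In bulk ovaries, fewer cells of a type and less RNA per cell cannot be told apart.

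The sequences upstream of the start sites are printed for the members whose levels differed between genotypes (Sycp3, Smc1b, Sycp1 and Syce1) and for the pair that was also found outside oocytes (Syce2, at the second of its RefSeq starts, and Rec8). Each is the stretch of 250 bases before a RefSeq start site of the GRCm38.p6 assembly, written 5′ to 3′ on the gene's own strand. The printed Syce2 and Rec8 windows run past the gene starts given below from GENCODE (chr8:84872111 and chr14:55618037). Their marked motifs lie beyond those starts, inside the genes by these coordinates. The first Syce2 window held no E-box. Capitals mark the E-box CACGTG, which reads the same on both strands, and the E2F6-type motif GCGGGA or its reverse complement TCCCGC; the motif matches did not overlap each other.
Sycp3, chr10:88459337-88459586, plus strand: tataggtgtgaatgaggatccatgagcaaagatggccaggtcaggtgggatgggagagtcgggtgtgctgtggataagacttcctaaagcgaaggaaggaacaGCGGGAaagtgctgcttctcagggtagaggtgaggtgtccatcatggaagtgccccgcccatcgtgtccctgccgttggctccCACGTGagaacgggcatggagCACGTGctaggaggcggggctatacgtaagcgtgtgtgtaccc
Smc1b, chr15:85131958-85132207, minus strand: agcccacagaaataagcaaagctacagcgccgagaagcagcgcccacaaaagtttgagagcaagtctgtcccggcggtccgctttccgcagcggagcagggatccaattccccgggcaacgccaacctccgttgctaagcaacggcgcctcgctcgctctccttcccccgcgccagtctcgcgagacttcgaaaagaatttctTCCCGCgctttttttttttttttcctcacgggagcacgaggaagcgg
Sycp1, chr3:102936101-102936350, minus strand: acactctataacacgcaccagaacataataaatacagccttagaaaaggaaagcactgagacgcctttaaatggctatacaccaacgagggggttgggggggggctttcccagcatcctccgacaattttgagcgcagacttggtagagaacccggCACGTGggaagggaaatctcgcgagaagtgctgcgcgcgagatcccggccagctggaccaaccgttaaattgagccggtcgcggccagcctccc
Syce1, chr7:140787855-140788104, minus strand: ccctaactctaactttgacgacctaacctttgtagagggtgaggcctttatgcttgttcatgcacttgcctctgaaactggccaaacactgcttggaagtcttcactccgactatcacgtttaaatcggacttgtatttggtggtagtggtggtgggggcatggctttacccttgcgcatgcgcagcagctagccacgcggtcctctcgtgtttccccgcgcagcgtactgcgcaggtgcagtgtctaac
Syce2, chr8:84872008-84872257, plus strand: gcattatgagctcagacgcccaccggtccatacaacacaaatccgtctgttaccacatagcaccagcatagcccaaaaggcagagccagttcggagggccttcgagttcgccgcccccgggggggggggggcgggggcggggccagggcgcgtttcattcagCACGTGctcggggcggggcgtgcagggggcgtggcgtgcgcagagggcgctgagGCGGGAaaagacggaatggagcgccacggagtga
Rec8, chr14:55617916-55618165, plus strand: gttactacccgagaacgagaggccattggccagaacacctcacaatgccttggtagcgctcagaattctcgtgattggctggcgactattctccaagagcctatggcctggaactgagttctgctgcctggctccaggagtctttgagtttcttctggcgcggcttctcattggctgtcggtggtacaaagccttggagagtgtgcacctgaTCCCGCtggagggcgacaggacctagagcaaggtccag

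Both motifs are known from germline gene promoters that a Polycomb complex with E2F6, MGA and MAX keeps silent in somatic cells. Over 32851 upstream windows of the same length, 6.02% held the E-box, 16.9% the E2F6-type motif and 1.45% both. All 10 members had a window, and some had several, for 13 windows in all. Hormad1, Sycp3, Sycp1 and Syce2 held an E-box in at least 1 window (4 of 10 genes), and Hormad1, Rec8, Smc1b, Syce2 and Sycp3 held the E2F6-type motif (5 of 10). Hormad1, Sycp3 and Syce2 held both, and Hormad2, Syce1, Syce3 and Sycp2 held neither. These counts are per gene and the percentages per window, and Hormad1, Syce2 and Syce3 had 2 windows each, so they are not on the same unit. CpG dinucleotides numbered from 5 to 25 in the members' windows, against a median of 6 over all windows, with quartiles of 2 and 16. A match is a string of letters in the window and was not tested for binding.

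Per kilobase of exon, the members fell into 5 groups in WT nonIR ovaries whose ranges did not overlap the next. Sycp3 (31.9 CPM per kb, 22.0 to 44.1 over 6 libraries), Syce2 (29.9 CPM per kb, 27.1 to 34.2) and Smc1b (24.01 CPM per kb, 19.2 to 29.8) led, and neighbours in that order overlapped. Syce1 followed at 9.05 CPM per kb and Sycp1 at 4.79 CPM per kb, each apart from the genes above and below it. Rec8 (1.91 CPM per kb) and Sycp2 (1.501 CPM per kb) overlapped each other and lay above Hormad2 (0.431 CPM per kb), Syce3 (0.273 CPM per kb) and Hormad1 (0.233 CPM per kb), whose neighbouring ranges overlapped. Exon lengths were taken from GENCODE M21 gene models.

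Beginning with the axis core, Sycp3 (ENSMUSG00000020059, chr10:88459569-88473236, plus strand, GRCm38) ranged from 27.8 through a median of 37.1 to 55.7 CPM in WT nonIR ovaries, and from 18.9 through 27.8 to 36.9 CPM after IR. In Chek2-/- ovaries it ranged from 26.9 through 58.4 to 71.2 CPM in nonIR and from 36.0 through 55.0 to 67.0 CPM in IR. The WT IR libraries were the lowest group and overlapped with each of the other 3 groups. The lowest Chek2-/- value in each treatment came from replicate 6, one of the libraries with few oocyte transcripts. Not every member was low there. In Chek2-/- IR replicate 6, Smc1b was at 134.5 CPM and Sycp1 at 23.3 CPM, above group medians of 132.8 and 21.1 CPM. In Chek2-/- nonIR replicate 6 both were the lowest of their group, at 107.9 and 17.7 CPM. Exons of Sycp3 share 660 bases with Chpt1 on the opposite strand, and the strand setting of the counting was not given, so reads there could belong to either gene. Chpt1 itself had a log2 fold change of -0.18 between Chek2-/- IR and WT IR (adjusted p = 0.756, edgeR). Sycp2 (ENSMUSG00000060445, chr2:178345293-178407685, minus strand), the partner of SYCP3 in the axis core, lay between 6.31 and 10.7 CPM in all 24 libraries, with group medians of 9.11, 8.16, 8.63 and 8.75 CPM in WT nonIR, WT IR, Chek2-/- nonIR and Chek2-/- IR.

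The HORMA-domain genes were low in whole ovaries. Hormad1 (ENSMUSG00000028109) was at 0.0949 to 0.786 CPM in WT nonIR, 0.120 to 0.498 CPM in WT IR, 0.466 to 1.42 CPM in Chek2-/- nonIR and 0.487 to 0.7995 CPM in Chek2-/- IR, from 47 to 126 counts in all per group of 6. Hormad2 (ENSMUSG00000020419) lay between 0.740 and 1.60 CPM in all libraries. All 4 groups overlapped for Hormad2. For Hormad1 the irradiated WT and Chek2-/- ranges overlapped only narrowly, with 4 of 6 Chek2-/- libraries above all WT libraries.

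Smc1b (ENSMUSG00000022432, chr15:85064689-85131964, minus strand) is the meiotic version of the cohesin subunit SMC1A. It ranged from 77.5 through a median of 96.2 to 120.7 CPM in WT nonIR and from 62.2 through 77.6 to 95 CPM in WT IR. In Chek2-/- ovaries it ranged from 107.9 through 125.6 to 142.0 CPM in nonIR and from 117.0 through 132.8 to 143.2 CPM in IR. Every Chek2-/- IR library was above every WT IR library. Rec8 (ENSMUSG00000002324, chr14:55618037-55625395, plus strand), the cleavable kleisin of meiotic cohesin, ranged from 4.21 through 5.27 to 7.88 CPM in WT nonIR, from 3.72 through 5.27 to 11.03 CPM in WT IR, from 2.14 through 2.71 to 9.87 CPM in Chek2-/- nonIR and from 2.25 through 3.63 to 6.63 CPM in Chek2-/- IR. Its groups overlapped, and in WT IR and both Chek2-/- groups the highest library was far above the median.

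Sycp1 (ENSMUSG00000027855, chr3:102818499-102936100, minus strand), the transverse filament, ranged from 12.6 through 15.8 to 24.4 CPM in WT nonIR and from 10.6 through 14.2 to 18.5 CPM in WT IR. In Chek2-/- ovaries it ranged from 17.7 through 19.6 to 26.2 CPM in nonIR and from 18.2 through 21.1 to 25.9 CPM in IR. The lowest Chek2-/- IR library reached into the top of the WT IR range, and 5 of 6 were above all WT IR libraries.

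Among the central element genes, Syce1 (ENSMUSG00000025480, chr7:140777229-140787852, minus strand) ranged from 10.2 through 13.5 to 15.3 CPM in WT nonIR and from 7.75 through 9.02 to 16.2 CPM in WT IR. In Chek2-/- ovaries it ranged from 10.7 through 16.6 to 19.8 CPM in nonIR and from 16.1 through 17.8 to 19.4 CPM in IR. In WT, 5 of 6 irradiated libraries were below all nonIR libraries, and replicate 4 stood above all of them. Syce2 (ENSMUSG00000003824, chr8:84872111-84888221, plus strand) ranged from 53.3 through 57.1 to 67.2 CPM in WT nonIR, from 50.4 through 54.0 to 57.3 CPM in WT IR, from 34.4 through 51.0 to 53.3 CPM in Chek2-/- nonIR and from 37.6 through 52.2 to 56.6 CPM in Chek2-/- IR. Its lowest value in each Chek2-/- group was again replicate 6. Syce3 (ENSMUSG00000078938) had 13 to 39 counts per group of 6 libraries and none in 1 library of each WT group, where 3 counts would be 0.0931 to 0.168 CPM.

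**Figure D1:**
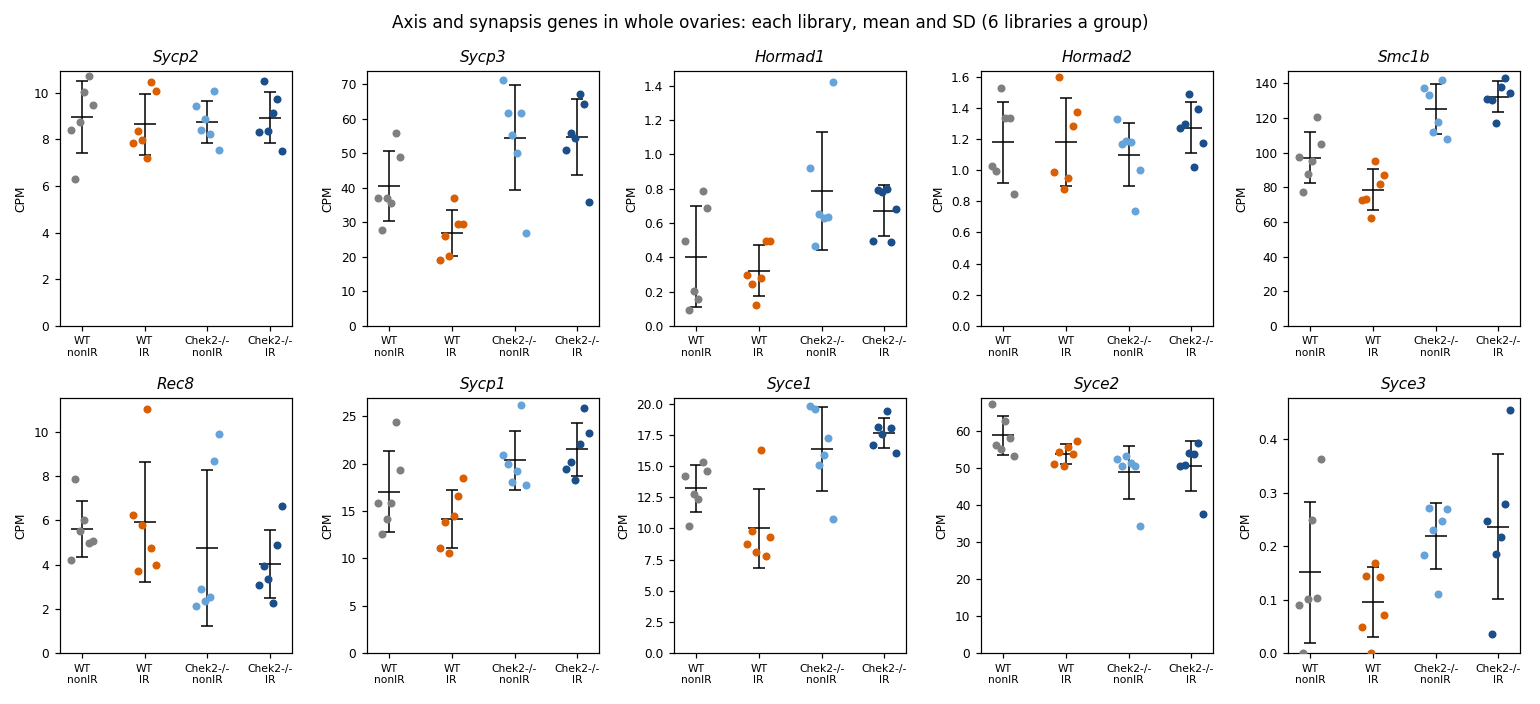
Levels in CPM (y axis, starting at 0 in each panel) of the 10 genes in the 24 whole-ovary libraries, with 6 libraries for each of the 4 groups; the horizontal bar is the group mean and the whiskers 1 SD. Smc1b in Chek2-/- IR (117.0 to 143.2 CPM) lies above WT IR (62.2 to 95 CPM) with no overlap, while Sycp2 stays between 6.31 and 10.7 CPM in every library.

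Irradiation of WT ovaries moved no member past the threshold. A gene was called when its p from edgeR's quasi-likelihood fit, adjusted across the whole table, was 0.05 or less. Of all genes tested, 1.53% were called higher and 0.885% lower in this comparison. Unadjusted p was under 0.05 for 3 members, all lower after IR. On the log2 scale Sycp3 differed by -0.59 (SE 0.202, adjusted p = 0.170, edgeR), Syce1 by -0.41 (SE 0.154, adjusted p = 0.237) and Smc1b by -0.305 (SE 0.099, adjusted p = 0.128), each with overlapping groups. The median log2 fold change of the 10 members was -0.28 beside -0.004 over all genes tested, and 2 of 10 members were positive. Syce1 depended on a single library: without WT IR replicate 4 its log2 fold change was -0.59 with an adjusted p of 0.00663 (edgeR), and Smc1b then had an adjusted p of 0.0464. Leaving out WT nonIR replicate 2 brought Smc1b to an adjusted p of 0.0425.

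In Chek2-/- ovaries, no member was called between IR and nonIR. No member had an unadjusted p under 0.05, the members' log2 fold changes ran from -0.24 (Rec8) to 0.21 (Hormad2), and their median was 0.066 beside 0 over all genes. Few genes of any kind were called here, 0.0112% higher and 0% lower. The 95% interval of the log2 fold change ran from -0.40 to 0.42 for Sycp3, from -0.12 to 0.28 for Smc1b and from -0.21 to 0.42 for Syce1.

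The difference between the irradiation effects of the genotypes was tested as an interaction, WT minus Chek2-/-. No member was called, where 0.694% of genes were called higher and 0.34% lower, and 3 members had an unadjusted p under 0.05. Their interaction log2 values were -0.60 (SE 0.283, adjusted p = 0.535, edgeR) for Sycp3, -0.52 (SE 0.216, adjusted p = 0.438) for Syce1 and -0.39 (SE 0.139, adjusted p = 0.289) for Smc1b. Syce1 passed the threshold (log2 -0.70, adjusted p = 0.0401) only in the fit without WT IR replicate 4. A difference in response between the genotypes was therefore not shown for the members.

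Without irradiation, Smc1b was the single member called in edgeR, higher in Chek2-/- than in WT ovaries by 0.36 on the log2 scale (SE 0.098, adjusted p = 0.0313, edgeR). Over all genes, 3.12% were called higher and 2.22% lower. The call for Smc1b was lost in 6 of the 12 fits that left out 1 library, with adjusted p-values of 0.0522 to 0.0785, and without the erythroid-rich libraries (adjusted p = 0.061), and in a fit of these 2 groups alone (adjusted p = 0.0706). Among members not called, the log2 difference was -0.27 for Syce2 (SE 0.093, adjusted p = 0.0895; DESeq2 called it lower at an adjusted p of 0.043), 0.94 for Hormad1 (SE 0.393, adjusted p = 0.161) and 0.43 for Sycp3 (SE 0.199, adjusted p = 0.207). Without replicate 6 of both Chek2-/- groups, the libraries with few oocyte transcripts, 3 members were called: Smc1b, Sycp3 (log2 0.57, adjusted p = 0.0312) and Syce2 (log2 -0.19, adjusted p = 0.0373). The shares of all genes above belong to the main fit, so a general rise in calls was not set apart here.

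After irradiation, 4 members were higher in Chek2-/- than in WT ovaries and none was lower, where 5.52% of all genes were called higher and 4.32% lower. Smc1b was higher by 0.75 on the log2 scale (SE 0.099, adjusted p = 1.12e-05, edgeR), and it was the only member whose groups did not overlap, as was the case for 5.3% of genes in either direction. Sycp3 was higher by 1.03 (SE 0.203, adjusted p = 0.00155), Syce1 by 0.83 (SE 0.154, adjusted p = 0.000878) and Sycp1 by 0.60 (SE 0.148, adjusted p = 0.0103), each with 5 of 6 Chek2-/- libraries above all WT libraries. Of the 4 called members, Sycp3 alone reached 2-fold (2.04-fold), beside 0.993% of all genes called higher by at least that much. These 4 calls held in all 12 fits that left out 1 library, and without the oocyte-poor or the erythroid-rich Chek2-/- libraries.

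The other 6 members were not called in irradiated ovaries. Hormad1 (log2 1.03, SE 0.406, adjusted p = 0.115, edgeR) and Syce3 (log2 1.29, SE 0.584, adjusted p = 0.176) had large fold changes on few counts. Rec8 was at -0.55 (SE 0.361, adjusted p = 0.389). For Sycp2, Syce2 and Hormad2 the 95% interval of the log2 difference ran from -0.20 to 0.29, from -0.28 to 0.10 and from -0.26 to 0.48. The members' median was 0.67 beside 0.012 over all genes. This comparison shares its WT IR libraries with the test of irradiation in WT, so the values of both are given side by side and not as independent results.

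**Figure D2:**
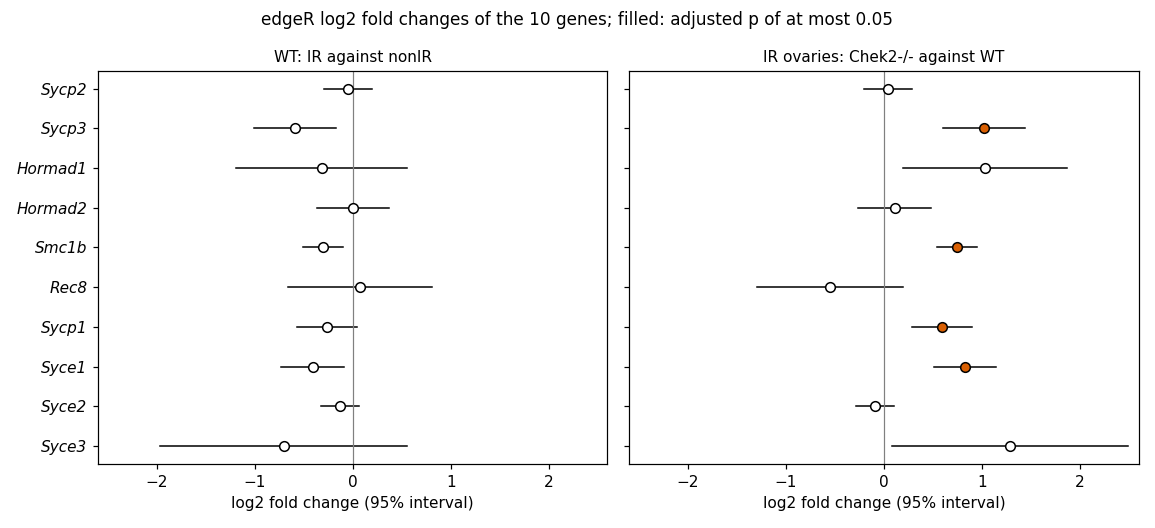
Log2 fold changes (x axis) of the 10 genes with 95% intervals from the edgeR fit, in WT ovaries for IR against nonIR (left) and in irradiated ovaries for Chek2-/- against WT (right); filled points have an adjusted p of at most 0.05. On the right, 4 genes are filled (Sycp3, Smc1b, Sycp1 and Syce1), and on the left none is; both panels use the same 6 WT IR libraries.

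The summed early oocyte markers were lower in WT IR than in the other groups on average, as were the called members, whereas the growing oocyte markers were not. Markers of early oocytes (10 genes, among them Sohlh1, Nobox, Lhx8 and Figla) summed to 479.8 to 570.7 CPM in WT nonIR, 363.9 to 453.8 CPM in WT IR, 358 to 647.8 CPM in Chek2-/- nonIR and 442.2 to 622.9 CPM in Chek2-/- IR. After irradiation in WT all 10 of these genes had negative log2 fold changes, from -0.78 to -0.13 with a median of -0.385. Of them, 3 were called lower, beside 0.885% of all genes. They were Sohlh1 (log2 -0.78, adjusted p = 0.000529, edgeR), Nobox (log2 -0.50, adjusted p = 0.00699) and Lhx8 (log2 -0.46, adjusted p = 0.027). In irradiated ovaries, 7 of the 10 were called higher in Chek2-/- than in WT, beside 5.52% of all genes. Among them were Sohlh1 (log2 1.003, adjusted p = 1.18e-05) and Dazl (log2 0.70, adjusted p = 0.00234), and none of the 10 was called by genotype in nonIR. Markers of growing oocytes (12 genes, among them Gdf9 and Zp3) summed to 7096 to 9374 CPM in WT nonIR, 7249 to 8667 CPM in WT IR, 3730 to 7709 CPM in Chek2-/- nonIR and 4259 to 7378 CPM in Chek2-/- IR. Their mean sum was 8219 CPM in WT nonIR, 7930 CPM in WT IR and 6623 CPM in Chek2-/- IR, so between the irradiated genotypes it went the other way from the called members. None of them was called after irradiation of WT. Between genotypes, Zp1 was lower in Chek2-/- in nonIR (log2 -0.46, adjusted p = 0.0236), and Zp1 and H1f8 were lower in IR. Among somatic lists in the irradiated ovaries, 3 of 6 smooth muscle markers (Acta2, Actg2 and Tagln) and 2 of 9 fibroblast markers (Col1a2 and Tcf21) were lower in Chek2-/- than in WT. So were 1 of 7 pericyte markers (Notch3) and 1 of 9 oviduct epithelium markers (Wfdc2), where 4.32% of all genes were called lower. The smooth muscle list summed to 97.98 to 175.9 CPM in Chek2-/- IR and 147.7 to 404.3 CPM in WT IR, and the fibroblast list to 3475 to 4787 CPM and 4448 to 5436 CPM. In nonIR, 2 of 9 fibroblast markers (Col1a1 and Col1a2) and 2 of 7 pericyte markers (Cspg4 and Notch3) were lower in Chek2-/-. Kitl (of 11 granulosa markers) and Ovgp1 (of 9 oviduct epithelium markers) were higher there, where 2.22% of all genes were called lower and 3.12% higher. The part that the number and stage of oocytes or these somatic cells had in the members' differences was not tested.

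Genes that act beside the members in meiosis were taken from a list of 43, of which 41 were tested. In WT ovaries 2 of them were called lower after IR and none higher, beside 0.885% and 1.53% of all genes. Meiosin, the cofactor of STRA8 that starts the meiotic program, went from 6.97 to 10.0 CPM in nonIR to 3.52 to 7.11 CPM after IR (log2 -0.97, SE 0.171, adjusted p = 0.000867, edgeR), and Tex11, a recombination and synapsis factor, fell by 0.61 on the log2 scale (SE 0.143, adjusted p = 0.0173). Meiosin was also the one gene of the list whose response differed between the genotypes (interaction log2 -1.02, SE 0.238, adjusted p = 0.0295). Without irradiation, Tex11 (log2 0.495, adjusted p = 0.0388) and Ythdc2 (log2 0.22, adjusted p = 0.0384), an RNA-binding helicase needed for meiotic entry, were higher in Chek2-/- than in WT. Iho1 (log2 -0.61, adjusted p = 0.0324), a partner of HORMAD1 in forming meiotic DNA breaks, was lower. Of all genes, 3.12% were called higher and 2.22% lower there. In irradiated ovaries 11 of the 41 were called higher and 3 lower in Chek2-/- than in WT, beside 5.52% and 4.32% of all genes. Those with the smallest adjusted p were Tex11 (log2 1.21, adjusted p = 2.44e-06), Meiosin (log2 1.15, adjusted p = 5.87e-05), the crossover genes Hfm1 (log2 1.25, adjusted p = 0.000517) and Ccnb1ip1 (log2 1.05, adjusted p = 0.00669), and Sycp2l (log2 0.45, adjusted p = 0.00289). The 3 lower ones were Iho1 (log2 -0.69, adjusted p = 0.00907), Psmc3ip (log2 -0.31, adjusted p = 0.0376), a recombinase cofactor, and Majin (log2 -0.92, adjusted p = 0.0442), which tethers telomeres to the nuclear envelope and had a mean of 0.302 CPM in Chek2-/- IR.

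Relatives and close partners of the members were looked at by name. Sycp2l, an oocyte paralog of Sycp2, was at 19.7 to 24.99 CPM in WT nonIR and 16.0 to 20.4 CPM in WT IR, and at 21.4 to 27.1 CPM in Chek2-/- IR, above all WT IR libraries. Stag3, the meiotic cohesin subunit that works with REC8 and SMC1B, was higher in irradiated Chek2-/- than WT ovaries by 0.51 (SE 0.137, adjusted p = 0.0182, edgeR). Rad21l, another meiotic kleisin, and Six6os1 and Tex12, further central element genes, were not called in any comparison. Tex12 came closest, with log2 fold changes of 0.57 and 0.54 between the genotypes (adjusted p = 0.0553 in nonIR and 0.052 in IR).

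Cohesin genes used in all dividing cells served as a contrast, with 19 genes tested. None was called for irradiation in either genotype or for the interaction. Between genotypes, 4 were called higher and none lower in nonIR, beside 3.12% and 2.22% of all genes. In IR, 3 were called higher and 2 lower, beside 5.52% and 4.32%. Smc1a, the somatic relative of Smc1b, had log2 fold changes of -0.048 and -0.036 between the genotypes, and Rad21, the somatic relative of Rec8, of 0.057 and 0, none of them called. The cohesin release factor Wapl (log2 0.19 and 0.18, adjusted p = 0.0014 and 0.000391, edgeR) and the loader Nipbl (log2 0.17 and 0.21, adjusted p = 0.0442 and 0.00518) were slightly higher in Chek2-/- in both treatments. Pds5a was higher too (log2 0.14 in both, adjusted p = 0.0369 and 0.0243), and Stag2 in nonIR (log2 0.21, adjusted p = 0.0209). In IR the securin gene Pttg1 (log2 -0.34, adjusted p = 0.0471) and the separase gene Espl1 (log2 -0.285, adjusted p = 0.0357) were lower.

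The single-cell libraries show which cells carried the members' transcripts. They held 9488 to 11053 barcodes each, and 36524 cells remained after filters and doublet removal, 8697 to 9779 per library. Pairs of libraries shared 30 to 73 barcodes, of which 15 to 31 were among the cells used. With 1 library per condition there is no test, and the intervals given cover counting error of transcript molecules (UMIs) only. Clusters were named from marker lists that left out the members, and the members were also kept out of the genes used for clustering. The study itself used Sycp1 and Sycp3 among its markers of primordial oocytes. A single cluster of 643 cells passed all 14 oocyte markers and is called oocyte-like; it had 235 cells from WT nonIR, 184 from WT IR, 80 from Chek2-/- nonIR and 144 from Chek2-/- IR.

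Oocyte-like cells made up 1.76% of cells and 10.1% of all UMIs and held 82.6% of the members' UMIs. The share was 96.7% (95% exact binomial interval 96.4 to 97.0) for Sycp1, 96.6% for Sycp3, 96.0% for Syce1, 95.8% for Smc1b, 94.7% for Sycp2 and Syce3, 97.8% for Hormad1 and 83.9% for Hormad2. Exceptions were Syce2, with 55.9% (55.5 to 56.3) of its 53295 UMIs in oocyte-like cells, and Rec8, with 5.85% (5.13 to 6.64) of its 3846. In WT nonIR, WT IR, Chek2-/- nonIR and Chek2-/- IR the Rec8 share was 12.0%, 3.95%, 3.31% and 4.42%. The Syce2 share was 66.1%, 53.0%, 46.8% and 53.1% in the same order. By library, the share of all member UMIs in oocyte-like cells was 87.8% in WT nonIR, 77.8% in WT IR, 79.5% in Chek2-/- nonIR and 81.0% in Chek2-/- IR, while oocyte-like cells were 2.53%, 1.88%, 0.92% and 1.64% of cells.

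In oocyte-like cells the levels, as UMIs per 10000 UMIs of the class, were 7.51 for Sycp3, 5.91 for Smc1b, 4.08 for Syce2, 1.47 for Sycp1, 1.38 for Syce1, 0.168 for Sycp2, 0.0959 for Hormad1, 0.0728 for Syce3, 0.0434 for Hormad2 and 0.0308 for Rec8. The 3 genes that led per kilobase in whole ovaries led here too.

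After each cell was thinned to 3000 UMIs, 560 oocyte-like cells remained and 83 shallower ones were left out. Sycp3 was then seen in 72.9% of oocyte-like cells and in 1.05% of fibroblast-like cells, given for comparison. How much of the fibroblast-like signal was free RNA was not tested. Smc1b was seen in 70.5% and 0.894%, Sycp1 in 30.5% and 0.177%, and Syce1 in 25.7% and 0.270% of these classes. Before thinning the shares in oocyte-like cells were 90.7%, 89.3%, 74.0% and 69.7%, at a median of 70648 UMIs against 12064 in fibroblast-like cells. Sycp2 (4.11%), Hormad1 (3.04%), Hormad2 (1.96%), Syce3 (1.43%) and Rec8 (1.25%) were seen in few oocyte-like cells at this depth.

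Outside oocyte-like cells, with the 4 libraries pooled, Sycp3 had 0.875 to 1.41 UMIs for each Smc1b UMI over the other classes, unnamed cells included, against 1.27 in oocyte-like cells. The ratio was 0.932 in granulosa-like and 1.08 in fibroblast-like cells, and in WT IR Sycp3 was below Smc1b in both, with 115 against 171 UMIs in granulosa-like and 114 against 146 UMIs in fibroblast-like cells, beside 9031 against 7316 in oocyte-like cells. Syce2 and Rec8 stood much further from their oocyte-like ratio to Sycp3. Syce2 had 0.543 UMIs for each Sycp3 UMI in oocyte-like cells and 16.8 in fibroblast-like cells, and Rec8 had 0.0041 in oocyte-like cells and 11.6 in epithelial-like cells.

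**Figure D3:**
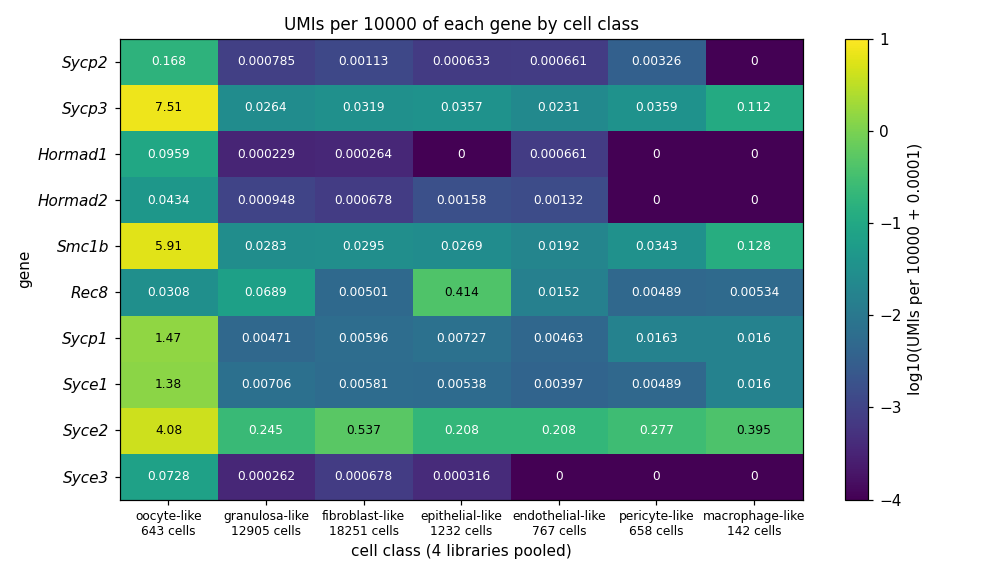
UMIs per 10000 of each gene (rows) in 7 cell classes (columns, with cell numbers), pooled over the 4 single-cell libraries; the colour is on a log10 scale and the printed number is the level. Of the 10 genes, 9 are highest in oocyte-like cells (Sycp3 at 7.51), and Rec8 is highest in epithelial-like cells at 0.414.

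Syce2 was found in every named somatic class, at 0.537 UMIs per 10000 in fibroblast-like cells, 0.245 in granulosa-like cells and 0.208 in epithelial-like cells, each far below the 4.08 of oocyte-like cells. After thinning it was seen in 61.1% of oocyte-like, 11.5% of fibroblast-like and 5.62% of granulosa-like cells. Within a class its level went with division markers (9 genes such as Top2a and Mki67). Among fibroblast-like clusters, the one with 36.2 division-marker UMIs per 10000 (3567 cells) had Syce2 at 0.974 (0.952 to 0.996), and the 3 with 1.57 to 2.57 had 0.287 to 0.381. Among granulosa-like clusters of more than 1000 cells, the one with 30.9 division-marker UMIs per 10000 had 0.406, and the 3 with 0.766 to 3.41 had 0.0638 to 0.276.

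Rec8 had its highest level in the epithelial-like cluster (1232 cells, led by Krt19, Upk3b and Krt7), at 0.414 UMIs per 10000 (0.392 to 0.437). The level there was 0.457 in WT nonIR, 0.377 in WT IR, 0.469 in Chek2-/- nonIR and 0.375 in Chek2-/- IR. Granulosa-like cells had 0.0689, with 0.126 and 0.137 in the clusters of 4078 and 1282 cells that had few division markers, 0.0517 in the largest cluster (4638 cells, 3.41 division-marker UMIs per 10000) and 0.0203 in the dividing cluster of 2832 cells. Fibroblast-like cells had 0.00501. In numbers, the epithelial-like cluster held 1309 of the 3846 Rec8 UMIs. The granulosa-like clusters of 4078, 4638, 1282 and 2832 cells held 1009, 568, 341 and 185, which is more in all. Thinned to 3000 UMIs, Rec8 was seen in 9.82% of epithelial-like, 2.17% of granulosa-like, 1.25% of oocyte-like and 0.177% of fibroblast-like cells. Before thinning these shares were 47.3%, 12.3%, 18.7% and 0.707%, at median depths of 16649.5, 21030, 70648 and 12064 UMIs.

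In whole ovaries, the 5 libraries with the most epithelial marker transcripts were the 5 with the most Rec8. The 8 epithelial markers summed to 1284 CPM in Chek2-/- nonIR replicate 6 (Rec8 9.87 CPM), 1138 CPM in WT IR replicate 4 (Rec8 11.03 CPM), 1093 CPM in Chek2-/- IR replicate 6 (Rec8 6.63 CPM), 857 CPM in Chek2-/- nonIR replicate 5 (Rec8 8.67 CPM) and 809 CPM in WT nonIR replicate 2 (Rec8 7.88 CPM). The lowest Rec8 values, 2.14 CPM in Chek2-/- nonIR replicate 1 and 2.25 CPM in Chek2-/- IR replicate 4, stood beside 621 and 506 CPM. This pair of measures was chosen after the single-cell levels had been seen. The part of epithelial or granulosa cells in the Rec8 level was not tested.

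**Figure D4:**
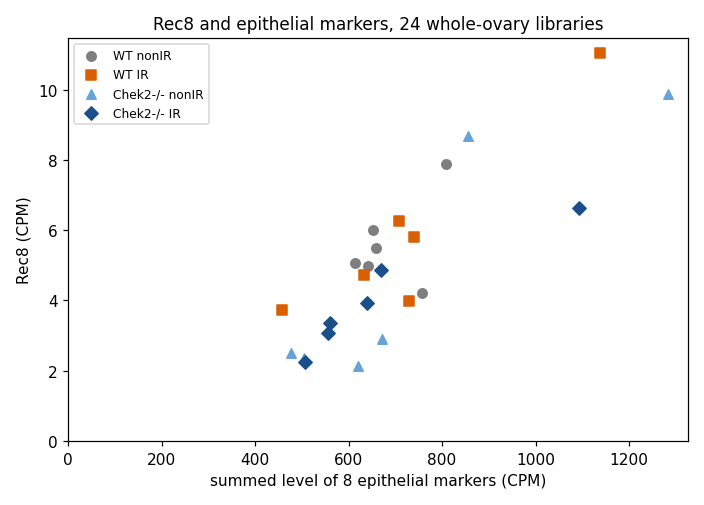
Rec8 level (y axis, CPM) against the summed level of 8 epithelial markers (x axis, CPM) in the 24 whole-ovary libraries, marked by group. The 3 libraries with 1093 to 1284 CPM of epithelial markers have Rec8 at 6.63 to 11.03 CPM; both values of a point come from the same library.

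Within oocyte-like cells, 9 sub-clusters were placed on an early or a growing side by whether their ratio of early to growing oocyte markers was above or below that of the whole class (0.202). The early side had 410 cells and the growing side 233. The side names stand for this ratio only, as the summed early markers overlapped between the sides. Growing-side sub-clusters of 66, 60 and 44 cells had 19.0, 22.4 and 24.2 early marker UMIs per 10000. Early-side ones of 143 and 53 cells had 19.6 and 24.8. Growing markers in the same sub-clusters were at 221, 124 and 201, against 56.5 and 77.2. A growing-side sub-cluster of 63 cells, 43 from WT nonIR, had few growing markers (26.5 UMIs per 10000, against 56.5 in the largest early-side one). Median depths of the early and growing sides were 192268 and 11816.5 UMIs in WT nonIR. Of the 100 growing-side cells there, 38 and 43 lay in sub-clusters with medians of 17870.5 and 9336 UMIs. The other 19 lay in one with 238834. The growing side of WT nonIR was thus mostly shallow cells by number. Median depths of the early and growing sides were 149420 and 255064.5 in Chek2-/- nonIR, and 103383 and 273775 in Chek2-/- IR. Stage and treatment could not be told apart in WT IR. A sub-cluster of 60 cells held WT IR cells only. Its ratio of 0.181 lay just below the cut, so it counted as growing. It had 22.4 early and 124 growing marker UMIs per 10000. The paper also described an oocyte group made up of irradiated WT cells only, and gave it a primordial oocyte signature. Whether both groups hold the same cells was not tested. Of the 69 cells of an early-side sub-cluster with a median of 3551 UMIs, 65 came from WT IR. That sub-cluster had many granulosa marker UMIs (12.9 per 10000). The stage comparison is therefore given for the other 3 libraries, each by itself.

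Sycp3 was higher on the early side, by 2.69-fold in WT nonIR (8.76 against 3.26 UMIs per 10000), 2.38-fold in Chek2-/- nonIR and 3.08-fold in Chek2-/- IR. Syce1 was higher on the early side by 3.04-, 2.08- and 2.45-fold, Smc1b by 1.57-, 1.17- and 1.64-fold and Sycp1 by 1.47-, 1.10- and 1.82-fold. Syce2 went the other way and was at 0.531, 0.537 and 0.490 of its growing-side level. Sycp2 was at 0.346, 0.972 and 0.360 of it, with the middle value from Chek2-/- nonIR, where the growing side had 18 cells. Hormad2, at 0.560, 0.389 and 0.606, was also lower on the early side, while Hormad1 was higher by 1.60-, 1.76- and 2.08-fold and Syce3 lay between 0.811 and 1.32. All of these 95% counting intervals except those of Syce3 in each library, and of Sycp2 in Chek2-/- nonIR, left out 1. The early marker Dazl was lower on the early side, at 0.62, 0.82 and 0.66 of its growing-side level in the same 3 libraries. The oocyte gene Ddx4 was at 0.89 of it in each. The early marker Figla was higher on the early side, by 1.06- to 1.52-fold.

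For Rec8 the early side was 3.99-fold (1.95 to 9.49) above the growing side in WT nonIR, 4.05-fold (1.24 to 20.9) in Chek2-/- nonIR and 7.47-fold (1.91 to 64.4) in Chek2-/- IR, on only 8, 3 and 2 growing-side UMIs. Over all libraries Rec8 was highest in the sub-clusters with the most granulosa markers. It was at 0.0596 per 10000 in the sub-cluster with 8.22 granulosa marker UMIs per 10000 and 0.211 in the one with 12.9. A growing-side sub-cluster of 63 cells, with 5.71 granulosa marker UMIs per 10000, had Rec8 at 0. In the deep sub-cluster of 86 early-side cells with 0.906 granulosa marker UMIs per 10000, Rec8 was at 0.00376, on few UMIs, beside 0.00501 in fibroblast-like cells.

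Individual sub-clusters showed the same split among the central element and axis genes. In that sub-cluster of 86 cells Sycp3 was at 11.9, Smc1b at 8.35, Syce1 at 2.04 and Syce2 at 3.66 UMIs per 10000. A growing-side sub-cluster of 66 cells, with the most growing-oocyte marker UMIs (221 per 10000), had Sycp3 at 2.42, Smc1b at 2.65, Syce1 at 0.293 and Syce2 at 7.28. Syce2 had 0.307 UMIs for each Sycp3 UMI in the first and 3.01 in the second. These values pool the 4 libraries, with 15 of the 66 cells of the second from WT IR. In WT nonIR alone Sycp3 was at 10.96 and 3.23, and Syce2 had 0.351 and 2.25 UMIs for each Sycp3 UMI. The clustering behind both sub-clusters did not use the members.

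**Figure D5:**
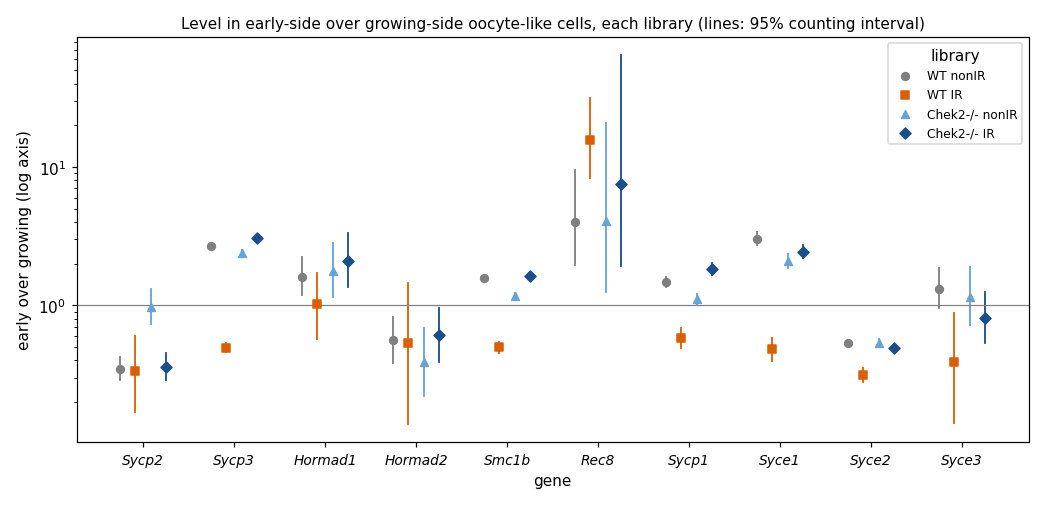
Ratio of each gene's level on the early side to that on the growing side of oocyte-like cells (y axis, log scale), by single-cell library; lines are 95% counting intervals and the grey line marks equal levels. Outside WT IR, where stage and treatment cannot be told apart, Sycp3 lies between 2.38 and 3.08 and Syce2 between 0.490 and 0.537.

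Over all oocyte-like cells, the members' summed level was 20.3 UMIs per 10000 in WT nonIR, 19.3 in WT IR, 23.8 in Chek2-/- nonIR and 20.5 in Chek2-/- IR. Sycp3 was at 7.47 in WT nonIR and 6.52 in WT IR, a ratio of 0.872 (0.851 to 0.894), and at 8.98 and 7.35 in Chek2-/-, a ratio of 0.819 (0.798 to 0.840). Smc1b had ratios of IR to nonIR of 0.900 in WT and 0.848 in Chek2-/-. For Syce2 they were 1.197 in WT and 1.02 in Chek2-/-. By side, the Sycp3 ratio in WT was 0.396 (early) and 2.15 (growing), where stage and treatment cannot be told apart. These values place the sub-cluster of 60 WT IR cells on the growing side. In Chek2-/- it was 0.851 and 0.657. Each library also differed in its mix of sub-clusters, and with 1 library per condition no difference between conditions could be tested.

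The genes whose levels ran most like the members' sum over 20 points (sub-clusters by library with at least 10 cells) were Fam50a (Pearson r = 0.988), Ube2c (0.980), Ofd1 (0.979), Atp6v1d (0.973) and Figla (0.973), from 12002 genes compared. The points share libraries and depth, so these values are a description. Among members, Syce1 and Sycp3 (r = 0.965) and Syce2 and Sycp2 (r = 0.872) ran closely together over the same points, and Sycp3, Smc1b, Sycp1 and Syce1 had pairwise values of 0.904 to 0.965.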

How the data were processed

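Whole-ovary RNA-seq was deposited by the authors as estimated counts per gene from Salmon 1.3.0, after Trim Galore 0.6.5, with mm10 named in the submitters' processing notes; the strand setting of the counting was not given in the sources used here. Single-cell libraries (10x) were deposited by the authors as whole-number UMI counts per gene and cell from Cell Ranger on GRCm38. The members and gene lists were chosen with earlier results of these data known.

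Estimated counts were rounded, genes with at least 10 counts over 24 libraries were kept, and 1 model over the 4 groups was fitted with TMM scaling and edgeR's quasi-likelihood test (edgeR 4.0.16, R 4.3.3), with Benjamini-Hochberg adjustment over all 26790 genes and a threshold of 0.05. The script was tested on simulated data. CPM used TMM-scaled library sizes. The named genes were the 10 members, their fixed partners, and from each list the genes called with the smallest adjusted p, and the genes most alike were the 5 with the highest correlation. DESeq2 1.42.0, limma-voom 3.58.1, other scaling and filters, a replicate block, single-library omissions and fits of the compared groups alone were alternatives.

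Cells with at least 1000 genes, at most 20% mitochondrial and 50% ribosomal UMIs were kept, called doublets (4.02 to 5.47% by library) were removed, and cells were clustered in scanpy 1.11.5 from 2000 variable genes, 30 components and Leiden resolution 0.5. The sub-clustering of oocyte-like cells at resolution 0.8, the early and growing sides and the thinning depth of 3000 UMIs were chosen after the data had been seen. Intervals are exact Poisson or binomial ones at 95% and cover counting error only. Promoter sequences came from RefSeq tables of GRCm38.p6.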

Additional observations from a re-analysis of the deposited data

Results flagged for a closer look

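Of 40 sets of 6 libraries (10 genes in 4 groups), 4 had a library whose gap to its nearest neighbour, divided by the range of the set, passed Dixon's 95% critical value for 6 values. Chance alone gives such a gap in about 1 of 20 sets. Syce1 was at 16.2 CPM in WT IR replicate 4 (gap 0.757 of the range), the library without which Syce1 passed the threshold for irradiation. Syce2 was at 34.4 CPM in Chek2-/- nonIR replicate 6 (gap 0.854) and at 37.6 CPM in Chek2-/- IR replicate 6 (gap 0.675), the libraries with the fewest oocyte marker transcripts. Rec8 was at 11 CPM in WT IR replicate 4 (gap 0.653), which also held 1138 CPM of epithelial markers.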

How the results depend on the processing

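The 4 members called higher in irradiated Chek2-/- than WT ovaries (Smc1b, Syce1, Sycp3 and Sycp1) were called under every alternative run. The number of members called ranged from 0 to 2 for irradiation in WT, 0 to 1 for the interaction, 0 to 1 for genotype in nonIR and 4 to 4 for genotype in IR when libraries were left out in turn. For genotype in nonIR, 2 were called by DESeq2 (Syce2 beside Smc1b), 0 in a fit of these groups alone, 3 without the oocyte-low and 0 without the erythroid-high Chek2-/- libraries. These last 2 alternatives were chosen after the data had been seen. The shares of all genes called, given earlier, belong to the main fit and not to these alternatives or the block fit below. A change in the number of members called was therefore not set apart from a change over all genes. Smc1b, at an adjusted p of 0.0313, was near the threshold, and few counts limited Syce3 and Hormad1.

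Libraries of different groups with the same replicate number deviated together unevenly (r from -0.16 to 0.796), and in each comparison at least 1 pair was at or below 0.1. Replicates 3 to 6 of Chek2-/- nonIR did go best with their own number in Chek2-/- IR. No label ties the numbers to a litter, batch or day, so the numbers were not taken as pairs. With the replicate number as a block, 1 member was called for irradiation in WT (Smc1b, log2 -0.304, adjusted p = 0.0486, edgeR), 2 for genotype in nonIR (Syce2 at log2 -0.276, adjusted p = 0.0421, beside Smc1b) and 5 for genotype in IR (Hormad1 added, log2 1.184, adjusted p = 0.0475).

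Signs turned only for log2 values near 0 or with wide errors, and the causes were not tested. Under limma these were Rec8 (-0.032) in WT IR, Syce3 (-0.098) in Chek2-/- IR, and Hormad1 (0.084) and Rec8 (-0.003) in the interaction. Under the block it was Syce3 (-0.002) in Chek2-/- IR. Without the oocyte-low libraries they were Syce3 (-0.104), Sycp3 (-0.037) and Hormad1 (0.02) in Chek2-/- IR and Sycp2 (0.005) for genotype in nonIR. Without the erythroid-high libraries they were Rec8 (0.027) in Chek2-/- IR, Hormad1 (0.018) in the interaction and Sycp2 (-0.011) for genotype in IR. Leaving out libraries in turn gave, for WT IR, ranges of -0.127 to 0.017 for Sycp2, -0.505 to 0.002 for Hormad1, -0.09 to 0.089 for Hormad2 and -0.189 to 0.2 for Rec8. For Chek2-/- IR they were -0.031 to 0.115 for Syce2, -0.177 to 0.332 for Syce3, -0.027 to 0.071 for Sycp2, -0.132 to 0.094 for Sycp3, -0.34 to 0.025 for Hormad1 and -0.45 to 0.106 for Rec8. For the interaction they were -0.337 to 0.231 for Hormad1 and -0.027 to 0.539 for Rec8, and for Sycp2 between genotypes -0.114 to 0.027 in nonIR and -0.017 to 0.091 in IR.

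Without doublet removal, the oocyte-like share of member UMIs was 81.4% over all libraries, 86.9% in WT nonIR, 76.1% in WT IR, 78.1% in Chek2-/- nonIR and 79.9% in Chek2-/- IR, each outside the counting interval of the value with doublets removed. The early over growing ratio of the members' sum, recomputed over the 4 libraries together, was 1.21 to 1.22 under the cell-filter, doublet and resolution alternatives. That value includes WT IR (0.467 by itself), where stage and treatment cannot be told apart. The other libraries had 1.43 (WT nonIR), 1.29 (Chek2-/- nonIR) and 1.46 (Chek2-/- IR), and were not recomputed singly under these alternatives.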
